A study of Mus musculus with 6 samples.

Results

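MicroRNA (miRNA) genes were described in hearts of mice with reduced vesicular acetylcholine transporter (VAChT), the protein that loads acetylcholine into synaptic vesicles. They were taken as the probe sets that carry a single gene symbol beginning with Mir and a digit or with Mirlet7, which gave 305 of 35556 probe sets, covering 300 different genes. Heart RNA of males aged 3 months was measured on 6 Affymetrix Mouse Gene 1.0 ST arrays, 3 for WT mice and 3 for VAChT KDHOM mice, which are homozygous for the knockdown allele, and each array carried a pool of 2 RNA samples. The knockdown lowers VAChT throughout the body and not only in the nerves of the heart, no treatment was given, and the labels name the strain C57BL/6, where the study's methods name a mixed C57BL6/j background and ventricular tissue. No label says whether the RNA samples of a pool came from different animals, so that p-values here cover the spread of pools, which may be in part technical.

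An miRNA is cut from a hairpin in a longer primary transcript, first by the Drosha and Dgcr8 complex in the nucleus and then by Dicer1 in the cytoplasm. One arm of the hairpin is loaded into an Argonaute protein and pairs with messenger RNAs mainly through its seed, bases 2 to 8 from the 5' end, which lowers the translation and stability of the target. In the heart, miR-1 and miR-133 are made in all striated muscle, and miR-208a and miR-499 are made from introns of the cardiac myosin heavy chain genes Myh6 and Myh7b. The RNA was converted to whole-transcript cDNA before hybridisation, a method made for long RNA, so that a probe set of a miRNA gene can report its primary transcript as well as its hairpin, and the mature miRNA was not measured separately.

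The mature sequences below belong to the genes that the results turn on. They are taken from RefSeq (GRCm38.p6), written 5' to 3', with the seed in capitals. The first 3 are made in heart or skeletal muscle.

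miR-208a-3p: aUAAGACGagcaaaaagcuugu

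miR-499-5p: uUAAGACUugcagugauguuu

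miR-206-3p: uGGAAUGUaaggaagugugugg

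miR-208a-3p and miR-499-5p share 6 of 7 seed bases. The next 4 come from 1 cluster of hairpins in the Clcn5 gene on chromosome X, where miR-500-3p and miR-501-3p have the same seed and 18 of 22 identical bases.

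miR-500-3p: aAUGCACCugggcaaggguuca

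miR-501-3p: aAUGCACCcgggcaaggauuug

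miR-188-5p: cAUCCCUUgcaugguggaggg

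miR-532-3p: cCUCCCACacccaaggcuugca

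The remaining ones belong to some of the genes with wide differences between the genotypes, but not to all of the widest. Of these, miR-181d-5p is given beside miR-181b-5p because they share a seed.

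let-7i-5p: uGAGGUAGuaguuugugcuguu

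miR-125a-5p: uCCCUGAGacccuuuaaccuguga

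miR-679-5p: gGACUGUGaggugacucuuggu

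miR-34b-5p: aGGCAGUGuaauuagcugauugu

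miR-26a-5p: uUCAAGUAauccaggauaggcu

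miR-181b-5p: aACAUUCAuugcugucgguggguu

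miR-181d-5p: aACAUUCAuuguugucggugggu

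miR-677-5p: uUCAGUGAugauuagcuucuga

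miR-692: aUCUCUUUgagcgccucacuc

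The hairpin of Mir208a spans chr14:54949060-54949142 on the minus strand (GRCm38.p6), within an intron of Myh6, and is printed here with its mature arms in capitals. It was chosen because Mir208a was the heart and muscle gene with a probe set of its own and a mean above background.

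Mir208a hairpin: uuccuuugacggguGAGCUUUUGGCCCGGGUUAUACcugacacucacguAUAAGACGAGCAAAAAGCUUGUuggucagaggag

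Values are log2 signals after robust multi-array averaging (RMA), and differences are VAChT KDHOM minus WT from limma, adjusted by Benjamini-Hochberg across the whole array. A probe set was taken as above background where its mean over the 6 arrays exceeded 6.503, the 95th percentile of 1035 olfactory receptor probe sets. By that measure 95 of the 305 miRNA probe sets were above background, 76 exceeded it on all 6 arrays and 195 on none. Slc18a3, which encodes VAChT, read 7.31, 7.42 and 7.11 on WT 1 to 3 and 7.24, 6.77 and 7.58 on VAChT KDHOM 1 to 3, which overlap, so that the labels are not separated by the gene that was targeted. Ogdhl, an oxoglutarate dehydrogenase-like gene, read 9.60, 7.21 and 10.33 on WT 1 to 3 and 7.06, 10.17 and 7.09 on VAChT KDHOM 1 to 3. Both arrays numbered 2 thus went against their groups for Ogdhl. Whether WT 2 and VAChT KDHOM 2 carry each other's label cannot be settled from the labels, which were kept, and every difference below would have another value if they did. The main results are therefore also given without both arrays. Other arrays stood apart among the miRNA probe sets: of the 6 arrays, WT 1 was the highest for 166 of the 305 and VAChT KDHOM 3 the lowest for 142, beside 11110 and 8677 of all 35556 probe sets. The 1035 olfactory receptor probe sets showed this as well, at 557 and 445. The median signal over all probe sets ran from 6.98 on WT 1 to 6.84 on VAChT KDHOM 3.

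Heart and muscle miRNA genes lay on both sides of 0, and none with a probe set of its own passed the test. Of 12 such genes listed, 7 had a probe set of their own, and their differences ran from -0.10 to 0.31 with a median of 0.11, against -0.14 for the other 298 miRNA probe sets and -0.02 for all probe sets. None reached an unadjusted p of 0.05 in limma, the groups overlapped for all 7, and their lowest adjusted p was 0.465. WT 1, the highest array for most miRNA probe sets, was the lowest for 4 of these 7. Without both arrays numbered 2 the median was 0.21, and without VAChT KDHOM 1, WT 1 or VAChT KDHOM 3 it was 0.00, 0.02 or 0.03. Mir133b, also listed, shares a probe set with Lincmd1 and is not among the 7. That probe set had a mean of 6.95, above background. It differed by -0.31, with an unadjusted p of 0.0458 and an adjusted p of 0.421 in limma.

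Mir208a has a mature product that takes part in the cardiac response to stress and thyroid hormone. It was the one heart and muscle gene with a probe set of its own and a mean above background. It read 6.41, 6.76 and 6.57 on WT 1 to 3 and 7.13, 6.57 and 6.98 on VAChT KDHOM 1 to 3. VAChT KDHOM 1 and 3 were above every WT array, and VAChT KDHOM 2 lay within the WT range. The log2 difference was 0.31 (standard error 0.16, n = 3 arrays per genotype, adjusted p = 0.465 in limma), which did not pass the test and holds for the arrays as labelled. Without both arrays numbered 2 it was 0.57 (standard error 0.13, n = 2 arrays per genotype), with an unadjusted p of 0.00523 and an adjusted p of 0.449 in limma. The study's own list of differentially expressed genes, drawn from these arrays, holds Mir208a and Mir501, so that neither was an independent choice.

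Myh6, the alpha myosin heavy chain gene that hosts Mir208a, read 13.78, 13.80 and 13.74 on WT 1 to 3 and 12.91, 13.82 and 13.80 on VAChT KDHOM 1 to 3. The array with the highest Mir208a value, VAChT KDHOM 1, was therefore the one with the lowest Myh6 value. The host difference was -0.26 (standard error 0.23, adjusted p = 0.633 in limma, n = 3 arrays per genotype), opposite in sign to that of Mir208a. All 9 cardiomyocyte markers examined had their lowest value on VAChT KDHOM 1, and their mean signal lay between 13.80 and 13.81 on the WT arrays and between 13.16 and 13.87 on the VAChT KDHOM arrays. The drop was uneven. Tnni3 and Tnnt2 read 13.51 and 13.59 on VAChT KDHOM 1, against lowest WT values of 14.37 and 14.50. Ryr2 and Mybpc3 read 12.37 and 12.62, against 12.43 and 12.76. Why the markers with the stronger signal fell further was not tested. Fewer cells of a type and less RNA per cell cannot be told apart in such bulk RNA. The part of VAChT KDHOM 1 in the Mir208a value was not tested beyond its omission, which gave 0.19. Of the cells a heart sample could also hold, 5 atrial markers averaged 9.70 to 9.99 on the WT and 9.94 to 10.45 on the VAChT KDHOM arrays, and 6 fast skeletal muscle markers 6.58 to 6.83 and 6.46 to 6.54.

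Mir499, hosted by the slow myosin gene Myh7b and related to Mir208a by its seed, read 4.87, 4.79 and 4.96 on WT 1 to 3 and 4.92, 4.88 and 5.33 on VAChT KDHOM 1 to 3. The groups overlapped, with VAChT KDHOM 3 alone above the rest, and the difference was 0.17 (standard error 0.13). Myh7b differed by 0.03 (standard error 0.10).

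Mir1a-1 and Mir1a-2, the gene copies of miR-1, which promotes muscle differentiation, differed by 0.11 (standard error 0.12) and -0.02 (standard error 0.24). Mir1a-2 read 3.96 on WT 1 and 4.83 on both other WT arrays, a wider spread than that between the genotypes. Mir133a-1 and Mir133a-2, the copies of miR-133a, which restrains smooth muscle genes and growth in heart muscle, differed by -0.10 (standard error 0.14) and 0.14 (standard error 0.15). Mir206, the skeletal muscle relative of miR-1, had the lowest readings of the list, between 2.97 and 3.27 on all 6 arrays, and differed by -0.09 (standard error 0.10). Apart from Mir208a these genes lay below the background limit, so that a change in them was not measurable with confidence, and their values depended on the arrays used. Without both arrays numbered 2 Mir1a-1 and Mir133a-2 differed by 0.23 and 0.34, and the signs for Mir133a-1 and Mir1a-2 turned (0.01 and 0.12). With 1 array left out Mir1a-1 ranged from 0.02 to 0.17 and Mir133a-2 from 0.00 to 0.25.

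**Figure D1:**
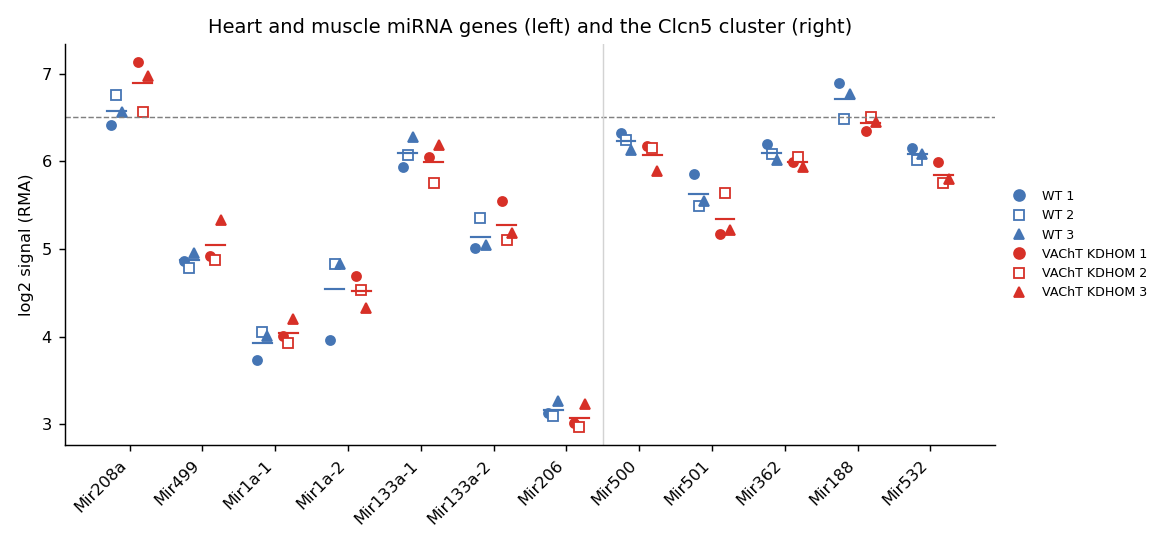
Log2 signal of 7 heart and muscle miRNA genes and of 5 miRNA genes of the Clcn5 cluster on each array, with WT in blue, VAChT KDHOM in red, open squares for the arrays numbered 2, short lines for group means and a dashed line at the background limit of 6.503. Mir208a is above the line on 5 of 6 arrays, VAChT KDHOM 1 and 3 are its highest points, and Mir501 shows the reverse order with VAChT KDHOM 2 among the WT values.

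The hairpins of the Clcn5 cluster, which lie close together in introns of a chloride channel gene, all had differences below 0, as did 231 of the 305 miRNA probe sets and 54.2% of all probe sets. The 5 measured members had a median of -0.23, and 2 of them were lower at an unadjusted p of 0.05 (limma), where 7.81% of all probe sets were. These were Mir188 at -0.28 (standard error 0.12) and Mir532 at -0.23 (standard error 0.09), and without both arrays numbered 2 they differed by -0.44 and -0.22. Mir501 read 5.86, 5.49 and 5.55 on WT 1 to 3 and 5.17, 5.63 and 5.22 on VAChT KDHOM 1 to 3. Here too VAChT KDHOM 2 lay within the WT range while the other VAChT KDHOM arrays were below it. The Mir501 difference was -0.29 (standard error 0.15, adjusted p = 0.473 in limma, n = 3 arrays per genotype), and without both arrays numbered 2 it was -0.51 (standard error 0.15). Mir500, which shares the seed AUGCACC with Mir501 on its 3p arm, differed by -0.16 (standard error 0.11) and Mir362 by -0.10 (standard error 0.08). Clcn5 itself differed by -0.15 (standard error 0.12). Only Mir188 had a mean above background in this cluster.

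Across all miRNA genes, most differences were below 0. The median over the 305 probe sets was -0.13 on the log2 scale. Below 0 lay 231 of them, beside 54.2% of all probe sets and 866 of the 1035 olfactory receptor probe sets. The median was -0.17 without both arrays numbered 2 and -0.07 after median centring. At an unadjusted p of 0.05 in limma 63 were lower and 4 higher in VAChT KDHOM hearts, 22.0% of the members against 11.7% of all probe sets, or by direction 7.81% lower and 3.93% higher. Median centring gave 33 lower and 7 higher, and without both arrays numbered 2 there were 43 lower and 4 higher, beside 10.6% of all probe sets. No miRNA probe set passed an adjusted p of 0.05 in limma or in the methods' own test, which leaves the variances unmoderated and gave 40 at an unadjusted p of 0.05. The lowest adjusted p of a member was 0.409, and 0.00281% of all probe sets passed. The groups did not overlap for 81 members that were lower and 4 that were higher, beside 12.9% and 6.25% of all probe sets.

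When a fold change of at least 1.3 was required as well, 12 members were lower and 1 was higher, 4.26% of the members beside 3.79% of all probe sets (1.67% lower and 2.12% higher). Most of the differences were thus small, and over both directions the share past both thresholds was close to the background. By direction it was not, with 12 of the 13 lower, where all probe sets had 594 lower and 754 higher. Of the 13, 7 had a mean signal not above background. It depended on single arrays: without WT 1 there were 2 past both thresholds, without VAChT KDHOM 3 there were 5, and without WT 2, WT 3, VAChT KDHOM 1 or VAChT KDHOM 2 there were 24, 30, 21 and 22. Without both arrays numbered 2 there were 35 lower and 3 higher, beside 7.87% of all probe sets, and 11 of the 13 remained. Of the 13, Mirlet7i and Mir692-1 remained past both thresholds without WT 1, Mirlet7i and Mir299a without VAChT KDHOM 3, and 9, 10, 10 and 11 without WT 2, WT 3, VAChT KDHOM 1 or VAChT KDHOM 2. With each array centred on its median the split was 3 lower and 4 higher.

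**Figure D2:**
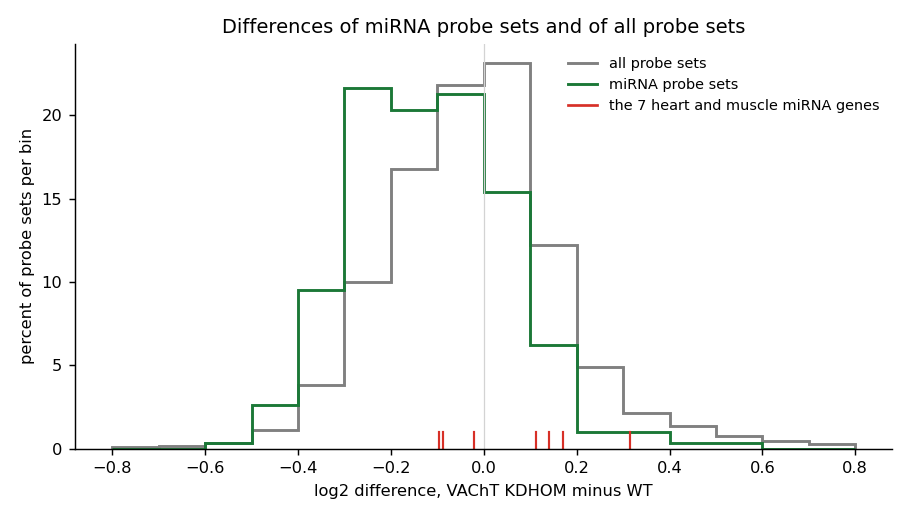
Percent of probe sets in each bin of 0.1 of the log2 difference, VAChT KDHOM minus WT, for all 35556 probe sets in grey and the 305 miRNA probe sets in green, with red ticks for the 7 heart and muscle miRNA genes. The miRNA distribution lies to the left, with a median of -0.13 against -0.02, and 4 of the 7 ticks lie to the right of 0.

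The shift was wider where the signal was stronger and went with 2 arrays. The 95 miRNA probe sets above background had a median difference of -0.24 and the 210 others -0.08, whereas all probe sets above background had 0.02 and those not above it -0.07. Olfactory receptor probe sets, whose genes are known from the nose, had -0.11, and 56 probe sets of small nucleolar RNA genes, another class of short RNA, had 0.18. The mean signal of the miRNA probe sets above background was 7.71, 7.54 and 7.56 on WT 1 to 3 and 7.45, 7.49 and 7.32 on VAChT KDHOM 1 to 3. The groups did not overlap in this mean, with WT 1 at the top and VAChT KDHOM 3 at the bottom. Over all 305 the median difference was -0.10 without WT 1 and also -0.10 without VAChT KDHOM 3. Either omission left 27 at an unadjusted p of 0.05 (limma). Without WT 1 these were 24 lower and 3 higher, from 63 and 4. The count fell over all 35556 probe sets as well, from 2776 lower and 1398 higher to 1311 and 849.

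**Figure D3:**
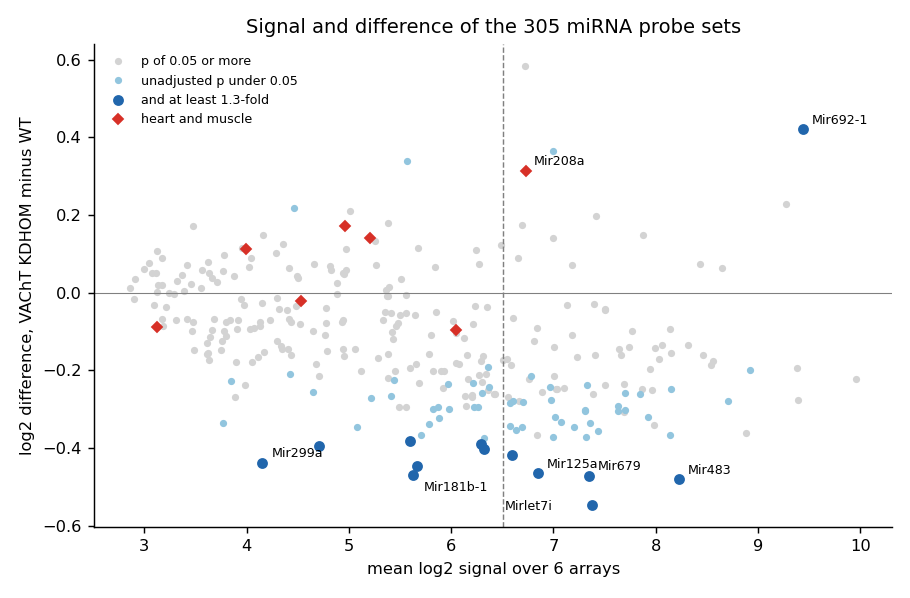
Mean log2 signal over 6 arrays (horizontal) and log2 difference, VAChT KDHOM minus WT (vertical), of the 305 miRNA probe sets, with a dashed line at the background limit of 6.503. Most points right of the line lie below 0, Mirlet7i is the lowest at -0.55, and Mir692-1 and Mir208a stand above 0 at 0.42 and 0.31.

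The base composition of the hairpins moved with this shift. Hairpin sequences were found in RefSeq for 260 of the 305 probe sets, and these were divided into 3 groups by their content of G and C. In the 87 with the lowest content (28.4% to 43.9%) the median difference was -0.01, in the middle 86 it was -0.16, and in the 87 with the highest (52.1% to 69.2%) it was -0.24. Past an unadjusted p of 0.05 (limma) were 4 lower and 2 higher, 21 lower and 1 higher, and 31 lower and 1 higher. The median signal was also higher with higher GC content, at 3.89, 5.43 and 6.69, so that content and signal were not separated here. On WT 1 the members lay above their own means by 0.01, 0.15 and 0.26 from the lowest to the highest group, and on VAChT KDHOM 3 by -0.00, -0.14 and -0.21. Without WT 1 the median differences of the 3 groups were -0.01, -0.11 and -0.16. The part of base composition in the shift was not tested.

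**Figure D4:**
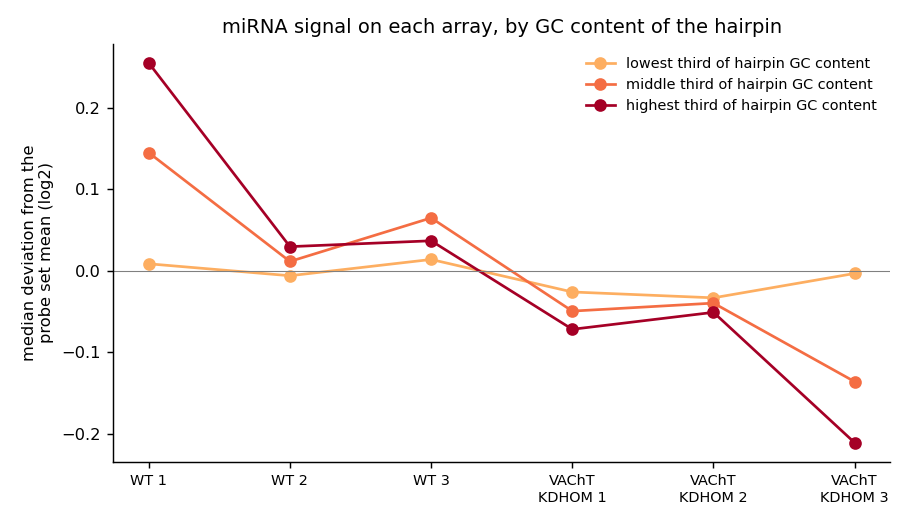
Median deviation of miRNA probe sets from their own mean over 6 arrays (log2, vertical) on each array, for 3 groups of hairpins by GC content. The groups are spread widest on WT 1, at 0.01, 0.15 and 0.26, and on VAChT KDHOM 3, at -0.00, -0.14 and -0.21, and lie close together on the other arrays.

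Among the miRNA genes past both thresholds, Mirlet7i had the widest difference. Mirlet7i, a member of the let-7 family that restrains growth genes, read 7.95, 7.49 and 7.50 on WT 1 to 3 and 7.18, 7.19 and 6.93 on VAChT KDHOM 1 to 3. All VAChT KDHOM arrays were below all WT arrays. The difference was -0.55 (standard error 0.15, adjusted p = 0.409 in limma, n = 3 arrays per genotype), and Mirlet7i was past both thresholds without any one array and without both arrays numbered 2. The rest of the let-7 genes did not share this: of 10 measured, 5 were below and 5 above 0, their median was -0.00, and Mirlet7i alone passed an unadjusted p of 0.05. Mirlet7a-1 differed by -0.28 (standard error 0.12) and Mirlet7e by -0.17 (standard error 0.10).

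Mir125a, whose seed is that of the worm miRNA lin-4 and which lies beside Mir99b and Mirlet7e on chromosome 17, read 7.40, 6.82 and 7.02 on WT 1 to 3 and 6.67, 6.69 and 6.503 on VAChT KDHOM 1 to 3. WT 1 was well above the other WT arrays, and the groups did not overlap. The difference was -0.46 (standard error 0.15), and without WT 1 it was -0.31 and no longer past both thresholds. Without both arrays numbered 2 it was -0.63.

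Mir483, in an intron of the growth factor gene Igf2, read 8.92, 8.33 and 8.16 on WT 1 to 3 and 8.02, 8.16 and 7.78 on VAChT KDHOM 1 to 3. The upper VAChT KDHOM value came within the rounding of the lowest WT value, and the difference was -0.48 (standard error 0.20). It was -0.25 without WT 1 and -0.38 without VAChT KDHOM 3, and was also no longer past both thresholds without WT 2 (-0.55) or VAChT KDHOM 1 (-0.50). Without both arrays numbered 2 it was -0.64. Mir679 and Mir299a, of the large imprinted miRNA cluster on chromosome 12, differed by -0.47 (standard error 0.17) and -0.44 (standard error 0.15). In the 30 probe sets from Mir379 to Mir369 of that cluster the median was -0.12 and 23 were below 0. There 4 were lower and none higher at an unadjusted p of 0.05 (limma), beside 7.81% and 3.93% of all probe sets. Mir9-1, a copy of the neural miR-9, differed by -0.45 (standard error 0.19), Mir670 by -0.42 (standard error 0.14) and Mir697 by -0.40 (standard error 0.11). The other lower ones with no overlap were Mir135b at -0.39, Mir34b, a target of p53, at -0.39 and Mir26a-1, which restrains growth signals, at -0.38. The means of Mir299a, Mir9-1, Mir697, Mir135b, Mir34b and Mir26a-1 were not above background.

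Mir181b-1 passed both thresholds although its groups overlapped. It read 5.77, 5.86 and 5.94 on WT 1 to 3 and 5.17, 5.84 and 5.15 on VAChT KDHOM 1 to 3, with VAChT KDHOM 2 again within the WT range and a mean not above background. The difference was -0.47 (standard error 0.19), and without both arrays numbered 2 it was -0.70 (standard error 0.13, adjusted p = 0.303 in limma, n = 2 arrays per genotype). Its family, whose seed ACAUUCA is shared by 6 measured genes and which is known from lymphocyte development and blood vessels, had a median of -0.28, with all 6 below 0 and 4 lower at an unadjusted p of 0.05, beside 7.81% of all probe sets. The family was singled out after its values were seen. Mir181d read 9.04, 8.80 and 8.71 on WT 1 to 3 and 8.55, 8.65 and 8.51 on VAChT KDHOM 1 to 3, without overlap, and differed by -0.28 (standard error 0.10).

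Mir692-1 was the one miRNA gene past both thresholds that was higher in VAChT KDHOM hearts. It read 9.24, 9.40 and 9.05 on WT 1 to 3 and 9.52, 9.54 and 9.89 on VAChT KDHOM 1 to 3, and the groups did not overlap. The difference was 0.42 (standard error 0.14, adjusted p = 0.409 in limma, n = 3 arrays per genotype), and it was 0.30 without VAChT KDHOM 3 and 0.33 without WT 3, which ended the call in both cases. The other copies, Mir692-2 and Mir692-3, are listed together with Ftl1, the ferritin light chain gene, in 4 probe sets, which differed by 0.27 to 0.31. Whether the Mir692-1 probe set takes up Ftl1 RNA was not tested. Of the other higher genes, Mir677 read 6.70, 6.86 and 6.89 on WT 1 to 3 and 7.12, 7.20 and 7.22 on VAChT KDHOM 1 to 3, a difference of 0.37 (standard error 0.09) that fell just short of 1.3-fold. Mir1839 differed by 0.34 (standard error 0.14) and Mir690 by 0.22 (standard error 0.08).

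Some genes with small p-values did not reach 1.3-fold. Mir378a, which lies in the gene of the mitochondrial coactivator Ppargc1b, read 6.59, 6.46 and 6.48 on WT 1 to 3 and 6.10, 6.09 and 6.22 on VAChT KDHOM 1 to 3. It had the smallest unadjusted p of any miRNA probe set, 0.00229 in limma, with an adjusted p of 0.409, a difference of -0.37 (standard error 0.08) and no overlap between the groups. Its mean of 6.32 was not above background. In the list of cardiac growth and fibrosis, 27 of 37 genes had a probe set, 11 of them above background, 23 were below 0 and the median was -0.17. At an unadjusted p of 0.05 there were 10 lower and none higher, beside 7.81% and 3.93% of all probe sets, with Mir34b and Mir26a-1 past both thresholds. Mir26b differed by -0.34 (standard error 0.09).

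Genes of vessels and blood reached an unadjusted p of 0.05 (limma) in 16.7% and 22.2%, against 22.0% of all miRNA probe sets. Of 12 vessel miRNA genes 2 were lower at an unadjusted p of 0.05 (limma), beside 7.81% of all probe sets, namely Mir143, which marks smooth muscle, at -0.37 (standard error 0.11) and Mir221, which acts in the vessel wall, at -0.26 (standard error 0.08), while Mir222 differed by -0.30 (standard error 0.13). Of 9 blood cell miRNA genes 2 were lower, Mir181b-1 and Mir150, a gene of mature lymphocytes, at -0.33 (standard error 0.10), and Mir146b differed by -0.19 (standard error 0.10). The medians were -0.09 and -0.17. Of the messenger RNA markers, 7 of vessels had a mean signal between 9.97 and 10.16 on the WT and between 10.11 and 10.28 on the VAChT KDHOM arrays, and 7 of blood cells between 7.60 and 7.68 and between 7.39 and 7.93.

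In lists of miRNA genes known from other tissues most differences were also below 0. Of 19 genes of nerve, liver, pancreas and epithelium, 1 of which was above background, 15 were below 0, the median was -0.14, and 3 were lower at an unadjusted p of 0.05 (limma), beside 7.81% of all and 22.0% of the miRNA probe sets past it, namely Mir9-1, Mir9-3 at -0.22 (standard error 0.07) and Mir124a-2, a neuronal gene, at -0.19 (standard error 0.08). Of 5 genes of embryonic stem cells none was above background or passed, and Mir302a, Mir302b and Mir302c differed by -0.15, -0.07 and -0.24. The 5 miRNA genes with the highest mean signal were Mir346 at 9.96, Mir692-1, Mir667, Mir680-3 and Mir568, and apart from Mir692-1 they differed by -0.22, -0.28, -0.19 and 0.23, with no call.

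By seed, the families differed in how far they were shifted, counting only the 270 genes with a mature sequence in RefSeq. Mir34c at -0.23, Mirlet7a-2 at 0.13, Mir30b at -0.06 and Mir30d at -0.03 were therefore not counted in the families below. Besides the miR-181 family, the 6 genes with the seed AUUGCAC (miR-25, miR-92 and relatives) had a median of -0.29, and the 6 with AAAGUGC (miR-17 and relatives, which promote proliferation) had -0.16 with all below 0. The 4 genes with GGCAGUG (miR-34 and relatives) had -0.21, also with all below 0. By contrast the 9 genes with the let-7 seed GAGGUAG had -0.04 and the 5 with the miR-30 seed GUAAACA -0.04. Genes of a family share hairpin sequence and often a transcript, so that they are not independent points.

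Neighbouring hairpins were also compared, since hairpins within 10 kb often come from 1 transcript. Of 13 such groups of at least 3 probe sets, 12 had a median below 0. Mir25, Mir93 and Mir106b had a median of -0.25, with values from -0.26 to -0.24, and Mir23a, Mir27a and Mir24-2 also -0.25, with values from -0.37 to -0.16. Of these 6 only 1 passed an unadjusted p of 0.05 (limma), beside 11.7% of all probe sets.

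Where a miRNA gene lies inside another gene, both can be read. Both had a probe set in 42 of 49 pairs listed, with 33 different hosts. Counted by pair, the miRNA gene was below 0 in 33 and the host in 19, and the signs were the same in 24. Clcn5 and other hosts stand in several pairs, and 13 of the 33 different hosts were below 0. The median difference was -0.16 for the miRNA genes and 0.03 for the hosts. Mir378a at -0.37 stood against 0.13 (standard error 0.10) for Ppargc1b, and Mir103-1 at -0.27 against 0.13 (standard error 0.12) for the pantothenate kinase Pank3. Mir26b at -0.34 stood against -0.06 (standard error 0.10) for the phosphatase Ctdsp1, and Mir342 at -0.35 against -0.07 (standard error 0.07) for the actin regulator Evl. Of the 33 hosts 2 passed an unadjusted p of 0.05 (limma), beside 11.7% of all probe sets. These were Smc4, a condensin subunit, at 0.34, and Zranb2, a splicing protein, at 0.28, and no host reached 1.3-fold.

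**Figure D5:**
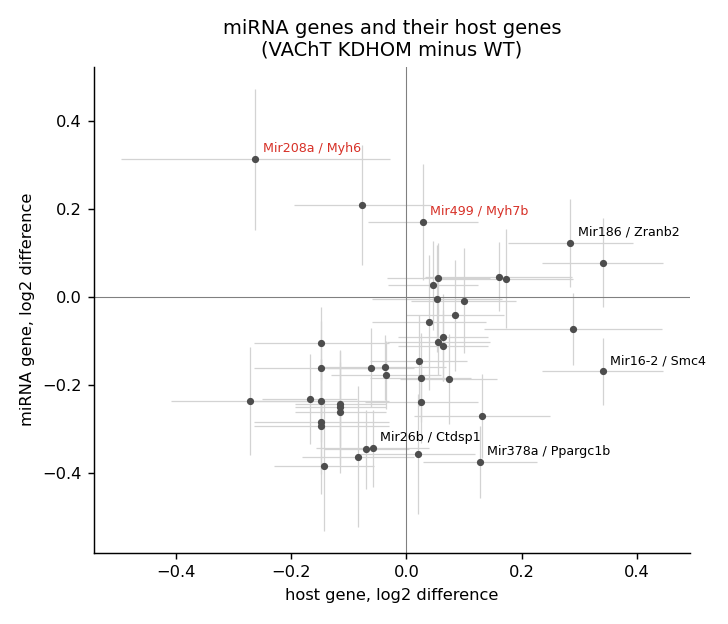
Log2 difference, VAChT KDHOM minus WT, of host genes (horizontal) and of the miRNA genes inside them (vertical) for 42 pairs, with standard errors as grey lines. Most points lie below the horizontal line at 0, on both sides of the vertical line, and Mir208a stands apart at 0.31 with its host Myh6 at -0.26.

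The genes that make and use miRNAs differed little. All 21 listed had a probe set, 18 were above 0, and the median was 0.07. At an unadjusted p of 0.05 (limma) 3 passed, 14.3% beside 11.7% of all probe sets, of which 2 were higher, Prkra, a partner of Dicer, at 0.34 (standard error 0.11), and Tut4, which adds uridines to let-7 precursors, at 0.29 (standard error 0.11). Lin28a, which blocks let-7 processing, was lower at -0.28 (standard error 0.11). None of the 21 reached 1.3-fold as well or passed an adjusted p of 0.05. Drosha differed by 0.18 (standard error 0.10), Dgcr8 by -0.05 (standard error 0.10), the exporter Xpo5 by 0.07 (standard error 0.09), Dicer1 by 0.02 (standard error 0.07) and Ago2, an Argonaute protein, by 0.09 (standard error 0.11).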

How the data were processed

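RNA of 6 pools, 3 WT and 3 VAChT KDHOM, was grouped by the genotype in the labels. The authors scanned Mouse Gene ST 1.0 arrays with Command Console 1.1 and ran RMA in Partek Genomics Suite 6.5. The deposited values are therefore log2 signals that RMA has made comparable between arrays. The genome build behind them is not given in the sources used here. They were used as deposited, without a filter. The medians of the deposited arrays still ran from 6.84 to 6.98, so that centring was tried as an alternative. The number of arrays limits the precision.

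Names came from the platform annotation, in which 21789 carry 1 symbol, 1621 several and 12146 none. All 305 miRNA probe sets were matched by symbol to RefSeq (GRCm38.p6), and 260 to a hairpin. Differences were tested, two-sided, in limma 3.58.1 (lmFit, then eBayes; R 4.3.3) and adjusted over all 35556 probe sets. The study's thresholds were an unadjusted p of 0.05 and 1.3-fold. The procedure was tested on simulated data.

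Older symbols in the lists were replaced by those in use (Mir497a by Mir497, for example). The miRNA genes and lists were chosen with earlier results of these data known. Genes were named if they were in the heart and muscle list or the Clcn5 cluster, passed both thresholds without overlap (the 8 widest in each direction), had one of the 3 smallest p of a list, hosted a miRNA so named or one of the 4 pairs with the smallest p, or had one of the 5 highest signals. Mir135b, Mir26a-1, Mir677, Mir1839, Mir690, Mir181d, Smc4, Zranb2, seed families, neighbouring hairpins and processing genes beyond the smallest p were named after their values were seen. For a gene with several probe sets the one with the highest mean is given; of 4 for Mir99ahg the differences were -0.03, -0.27, 0.11 and 0.58.

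Alternatives were a further quantile normalization, median centring, a filter on dim probe sets, intensity trend and robust eBayes, the methods' ANOVA, weights per array, a block for the replicate number, leaving out each array or both numbered 2, other treatment of probe sets, and other fold thresholds. RT-qPCR and protein measurements were not analysed here.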

Additional observations from a re-analysis of the deposited data

How the results depend on the processing

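No miRNA probe set passed an adjusted p of 0.05 under any of the 20 other settings. At an unadjusted p of 0.05 the count of 67 became 40 with median centring (33 lower, 7 higher) and 40 with the methods' ANOVA (37 lower, 3 higher), and 27 to 66 with 1 array left out. At both thresholds the count of 13 became 7 with a further quantile normalization, 7 with median centring, 7 among probe sets above background, 3 with the methods' ANOVA, 1 with array weights (Mirlet7i), 38 without both arrays numbered 2, 50 at 1.2-fold, 0 at 1.5-fold, 67 with no fold threshold, and 2 to 30 with 1 array left out. Of the 13, 4 remained with quantile normalization, 4 with median centring, and 2 without WT 1 or without VAChT KDHOM 3. The median difference of -0.13 was -0.24 among probe sets above background, -0.07 with median centring, and -0.16 to -0.10 with 1 array left out. Of the heart and muscle genes none was past both thresholds, 1 was without both arrays numbered 2 (Mir208a), and 0 to 1 with 1 array left out. Of the processing genes 1 was with median centring, 1 without both arrays numbered 2, 3 at 1.2-fold and 3 with no fold threshold, and 0 to 1 with 1 array left out. Mir133a-1 turned to 0.011 without both arrays numbered 2 and ranged from -0.19 to 0.025 with 1 array left out. Mir1a-2 turned to 0.045 with median centring and 0.12 without both arrays numbered 2, and ranged from -0.31 to 0.12. The causes were not tested. Of the 41 named miRNA genes no other changed sign.

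Deviations from the group means correlated by 0.06, -0.12 and 0.13 between arrays with the same number, and by -0.21 to 0.18 between the others. Such values cannot decide whether the numbers pair the arrays, because the deviations sum to 0 within each group of 3. With the replicate number as a block 14 were past both thresholds (12 lower, 2 higher) and 75 at an unadjusted p of 0.05 (70 lower, 5 higher).

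Signal exceeded background for 95 of the 305 probe sets and for 6 of the 13 past both thresholds, so that the differences of the rest are less certain, and pools of 3 against 3 limit what an adjusted p can reach for differences of this size.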

Other observations

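A further 61 probe sets list a miRNA gene among several symbols and belong to none of the counts above. Many of them repeat the same values, as those of the Mir669 and Mir467 genes do, and are not independent. Of the 61, 3 passed both thresholds, beside 3.79% of all probe sets, and none of the 3 had a mean above background. The one shared by Mir1291 and Snora34, a small nucleolar RNA gene, read 5.42, 5.79 and 5.71 on WT 1 to 3 and 6.39, 6.32 and 6.63 on VAChT KDHOM 1 to 3, a difference of 0.81 (standard error 0.13) with an adjusted p of 0.409 in limma. Its groups did not overlap, and its difference was wider than that of any of the 305 miRNA probe sets. The one shared by Mir29b-2 and A330023F24Rik differed by 0.43 (standard error 0.11). By contrast, the probe set shared by Mir29c and A330023F24Rik differed by 0.13 (standard error 0.15). Mir29a, with a probe set of its own, differed by 0.11 (standard error 0.09). The one shared by Mir92-1 and Mir17hg, the transcript of the miR-17 cluster, differed by -0.49 (standard error 0.12), where the probe set of Mir17hg alone differed by -0.26 (standard error 0.15). The probe set shared by Mir133b, a muscle miRNA gene, and its host Lincmd1 read 7.32, 7.03 and 6.97 on WT 1 to 3 and 6.80, 6.97 and 6.61 on VAChT KDHOM 1 to 3, a difference of -0.31 (standard error 0.13). Its unadjusted p was 0.0458 in limma, and its mean of 6.95 was above background. Which of the genes that share a probe set gave its signal was not tested.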
